A study of Arabidopsis thaliana with 4 samples.

Results

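Transcripts of 55 nucleosome assembly genes were followed in germinating Arabidopsis thaliana seedlings, of 23932 features in the deposited expression table. The members were all rows of that table whose Gene Ontology biological process entry holds the exact term nucleosome assembly. That rule uses no measured value, but the gene set was chosen with earlier results of these data known. By the protein domain and name in the RefSeq annotation, 37 were core histone genes: 6 for H2A, 2 for H2A.X, 10 for H2B, 5 for H3.1, 3 for H3.3, 4 for other H3 proteins and 7 for H4. The other members were 2 linker histone H1 genes, 5 further genes with an H1-type domain, 3 HMGA-type genes and 8 histone chaperone genes. The label of the gene set therefore matched its content, since 37 of 55 members encode core histones.

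The 4 samples were the Columbia wild type (Col-0) and a ZFP3 overexpressor (ZFP3ox; ZFP3 is a zinc finger protein), each with and without abscisic acid (ABA), 1 sample of each. Seeds of both genotypes were germinated on 5 µM estradiol, so all 4 groups share estradiol, the inducer of the ZFP3 transgene. Control seedlings were harvested after 36 h and seedlings on 5 µM estradiol with 2.5 µM ABA after 84 h, when the radicles had reached the same stage. ABA and time on the plate thus cannot be told apart. The labels do not say whether ZFP3ox was 1 line or several.

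Nucleosomes wrap DNA around an octamer of the core histones H2A, H2B, H3 and H4, and linker histone H1 binds the DNA between them. Canonical histones, H3.1 among them, are made mainly in S phase to package newly copied DNA, and their genes are therefore most active where cells divide. Variants such as H3.3 are deposited outside replication as well. Histone chaperones carry the proteins: chromatin assembly factor 1, with FAS1 and FAS2, places H3.1 and H4 behind the replication fork, and NAP1 proteins handle H2A with H2B. ABA is the hormone that holds seeds dormant and slows seedling growth after germination.

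The stretches upstream of the histone genes are shown for 4 members whose values recur below, because they carry, or lack, short elements known from plant histone promoters. Each is the 250 bases before the annotated gene start in RefSeq TAIR10.1, read 5′ to 3′ on the gene's strand, with capitals marking the octamer CGCGGATC or the hexamer ACGTCA, either in that form or as its reverse complement. HTA10 (H2A) lies downstream of chr1:18926561-18926810 (plus strand), AT5G65360 (H3.1) of chr5:26120582-26120831 (minus strand), HTB11 (H2B) of chr3:16914132-16914381 (minus strand) and AT3G46320 (H4) of chr3:17020429-17020678 (minus strand).
HTA10: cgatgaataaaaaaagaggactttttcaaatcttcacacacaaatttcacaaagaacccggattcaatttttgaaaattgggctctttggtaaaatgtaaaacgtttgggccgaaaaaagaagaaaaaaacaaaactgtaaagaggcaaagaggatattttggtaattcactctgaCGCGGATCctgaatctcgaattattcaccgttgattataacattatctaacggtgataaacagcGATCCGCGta
AT5G65360: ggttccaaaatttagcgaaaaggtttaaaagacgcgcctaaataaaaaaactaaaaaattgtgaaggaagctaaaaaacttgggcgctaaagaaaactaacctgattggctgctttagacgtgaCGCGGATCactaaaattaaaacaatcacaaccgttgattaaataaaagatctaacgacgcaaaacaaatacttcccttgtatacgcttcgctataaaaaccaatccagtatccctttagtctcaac
HTB11: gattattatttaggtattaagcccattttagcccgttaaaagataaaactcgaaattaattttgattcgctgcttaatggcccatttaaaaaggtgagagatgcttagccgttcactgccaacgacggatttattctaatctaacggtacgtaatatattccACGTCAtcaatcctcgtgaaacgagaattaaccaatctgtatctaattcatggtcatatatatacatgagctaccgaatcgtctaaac
AT3G46320: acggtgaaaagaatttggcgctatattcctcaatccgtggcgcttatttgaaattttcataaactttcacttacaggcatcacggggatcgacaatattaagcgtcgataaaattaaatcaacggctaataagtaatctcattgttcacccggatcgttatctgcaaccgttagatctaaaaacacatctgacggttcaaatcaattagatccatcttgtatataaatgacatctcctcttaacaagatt
HTA10 holds the octamer in both orientations, AT5G65360 holds it once, HTB11 holds the hexamer once and AT3G46320 holds neither exact form. Over both strands, the octamer was present upstream of 10 of 55 members (18.2%) and of 37 of all 27443 protein-coding genes (0.135%). It stood before 3 of 6 H2A, 3 of 5 H3.1, 2 of 7 H4, 1 of 2 H1 and 1 of 3 H3.3 genes, and before none of the 10 H2B genes. The hexamer was present upstream of 12 of 55 members (21.8%) and 7.69% of all genes, with 8 of 10 H2B genes and none of the 7 H4 or 6 H2A genes. A match here is a description of the letters only.

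Each sample has 2 columns in the deposited table, in sets called set 1 and set 2 below, and nothing states how the sets differ. Set 1 holds RPKM, reads per kilobase of a gene's exons after scaling for library size. Set 2 turned out to hold RPM, reads scaled to library size with no length scaling, since every value was a whole multiple of 1 step per column, so its reads could be counted. 1 read was worth 0.0710, 0.0921, 0.105 and 0.101 RPM in the control and ABA sample of the wild type and then of ZFP3ox. Set 2 is given below as reads, for their precision, while its ratios and orders were taken from RPM. The table held 3.46, 3.03, 2.53 and 2.64 Mreads (M, mega) in set 2, in the same order. The steps imply larger scaling totals, of 14.1, 10.9, 9.50 and 9.92 Mreads. Set 2 ratios and their intervals rest on those totals. With the reads in the table as the base, the wild-type ABA ratios and the ratios between genotypes would differ. The low values of set 1 point to about 2.65 to 4.12 Mreads. At those depths 68% to 74% of the 400 lowest values lay within 0.1 of a whole read, against 20% by chance. The reads then implied over genes, 3.25 to 4.57 Mreads, exceed these depths, so the estimate is rough. Each pair of columns stood for 1 sample, ratios were taken within a set on log2(value + 1), and the mean of the sets is the main value. A feature was used where at least 1 sample reached 1 in both sets, which kept 22646 features and 53 members. With 1 sample per group there is no replicate spread, so pairwise ratios carry no p-value, and a change is counted past 2-fold. Values of all 4 samples are listed below in one order: first the control and then the ABA sample of the wild type, then the same for ZFP3ox. ZFP3 itself matched the genotype labels, with 8.66, 15.66, 175.59 and 85.42 RPKM in set 1 and 1.14, 1.01, 40.76 and 44.76 RPM in set 2.

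The nucleosome assembly genes were among the higher transcripts of set 1. Their median level stood at percentile 88.7 of all features in wild-type control and 88.6 in ZFP3ox control, and at 73.3 and 66.1 in the ABA samples of the same genotypes. In set 2, with values divided by exon length, the medians stood at percentiles 62.3, 58.0, 73.2 and 57.0. The sets therefore place these genes at different heights. Per length, H4 and H2B genes led the summed RPKM of wild-type control, with 577.7 over 7 genes and 564.6 over 10 genes. Next came H3.1 with 370.3 over 5, H2A with 355.8 over 6 and H3.3 with 351.2 over 3 genes. The other H3 genes gave 17.0 RPKM in all.

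**Figure D1:**
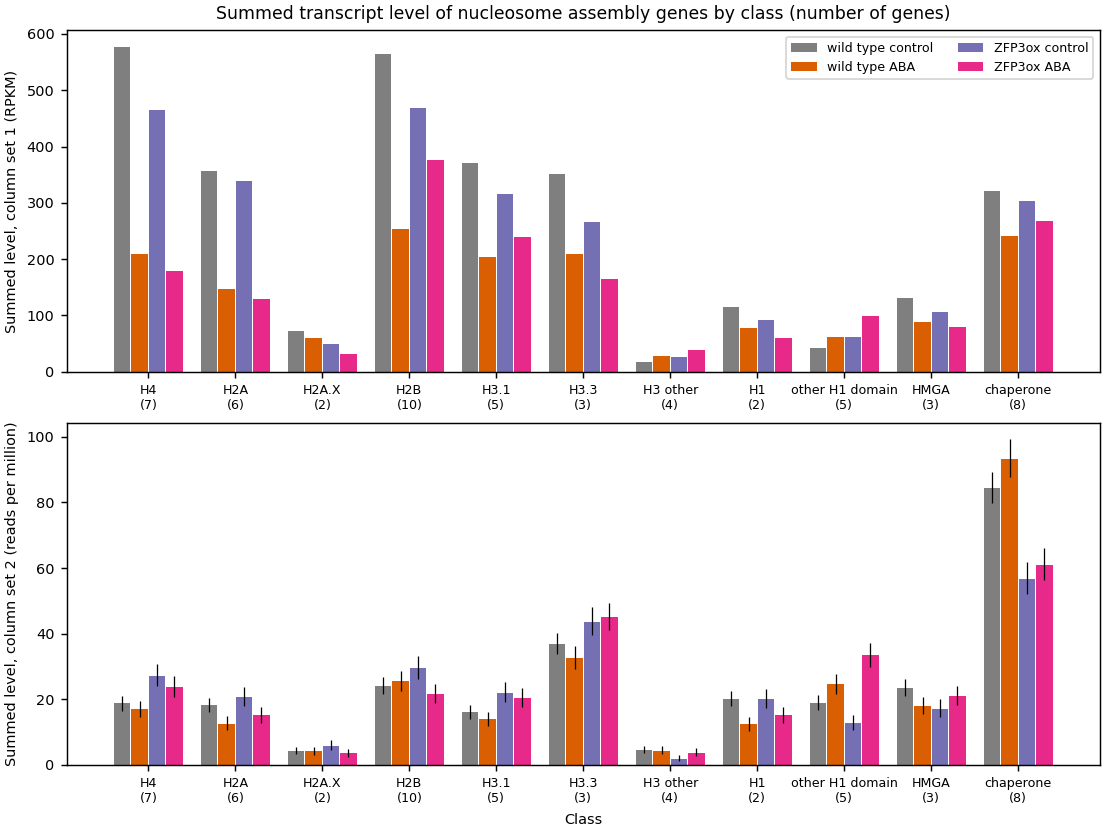
Summed level of each class in the 4 samples, in RPKM (set 1, upper panel) and in RPM (set 2, lower panel), with the number of genes in parentheses. Lines on the lower bars are exact 95% Poisson intervals that cover counting error only, and set 2 is not scaled by gene length. H4 in set 1 is 577.7 and 464.1 in the controls against 208.8 and 179.7 with ABA, and in set 2 it is 18.7 and 27.2 RPM against 16.9 and 23.7.

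Seedlings germinated on ABA had less core histone RNA than controls in both genotypes, with a wide gap in set 1 and a narrow one in set 2. The 37 core histone genes summed to 2309 RPKM in the wild-type control and 1110 with ABA, and to 1927 and 1159 RPKM in ZFP3ox. The ABA samples thus held 0.481 and 0.602 of the control level. In set 2 the same genes had 1723, 1190, 1429 and 1319 reads. After scaling to RPM, ABA over control was 0.895 (exact binomial 95% interval 0.831 to 0.965) in wild type and 0.883 (0.819 to 0.953) in ZFP3ox. These intervals cover counting error only, not the choice of scaling total, and compare the libraries, not the treatments. The set 1 ratios lay below both intervals, so counting error in set 2 does not cover the difference between the sets. In bulk seedlings, fewer cells that express these genes and less RNA per cell cannot be told apart.

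Across single members, in wild type 5 of 53 members (9.43%) were past 2-fold lower with ABA, against a background of 2.86% of all features. None was past 2-fold higher, against a background of 4.65%. In set 1 alone 20 members (37.7%) were lower, against 4.86% of all features, and in set 2 alone 2 members (3.77%), against 5.88%. Past 2-fold lower in each set separately was 1 member, HTA10, against 1.37% of all features. The median log2 ratio of the members was -0.37, with -0.67 in set 1 and -0.05 in set 2, beside 0.15, 0.31 and -0.03 over all features. Both sets had the same sign for 35 of 53 members, with a Pearson correlation of 0.22 between the sets. No share over all features was taken for this count. Under median-of-ratios scaling the median of all features was 0.003 and that of the members -0.54, 8 members were lower, and 719 features were higher and 930 lower in place of 1054 and 647.

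In ZFP3ox 6 of 53 members (11.3%) were past 2-fold lower with ABA, against a background of 2.23%, and 2 were higher, against 4.55%. Set 1 alone gave 14 lower (26.4%, background 5.49%) and set 2 alone 2 lower (3.77%, background 2.42%). HTA6 was the member past 2-fold lower in each set, against 0.729% of all features. The median log2 ratio was -0.34, with -0.60 and -0.04 in the sets, beside 0.21 over all features. Median-of-ratios scaling moved the median of all features to 0.02 and that of the members to -0.54, with 8 members lower, and gave 554 features higher and 915 lower in place of 1031 and 506. The sets shared their sign for 32 of 53 members, with a Pearson correlation of 0.41 and again no share over all features. No member differed by 4-fold or more between the ABA ratios of the genotypes, where 0.336% of all features were higher and 0.185% lower in ZFP3ox.

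Since the comparison in each genotype used its own control, the 4 samples were also read together. In set 1 both ABA samples were below both controls for 29 of 53 members (54.7%), against 15.8% of all features, and above both for 6 (11.3%), against 39.2%. In set 2 the lower pattern held for 12 members (22.6%), against 14.2%, and the higher for 7, against 20.9%. In both sets at once it held for 8 members (15.1%), against 4.96%, and above both controls for 2 (background 9.88%). The lower ones were the H2A genes HTA2, HTA6 and HTA13, H2AXA, the H2B gene HTB9, the H3.1 gene AT5G65360, the H4 gene AT5G59690 and the H1 gene AT2G30620. This count was chosen after the data were seen. By the upstream letters, the 10 members with the octamer had a median ABA ratio of -0.65 in wild type and -0.73 in ZFP3ox, the 11 kept members with the hexamer -0.65 and -0.34, and the 33 with neither -0.21 and -0.10, AT5G10400 holding both motifs. The motifs follow the classes, so these medians are a description of the same genes.

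**Figure D2:**
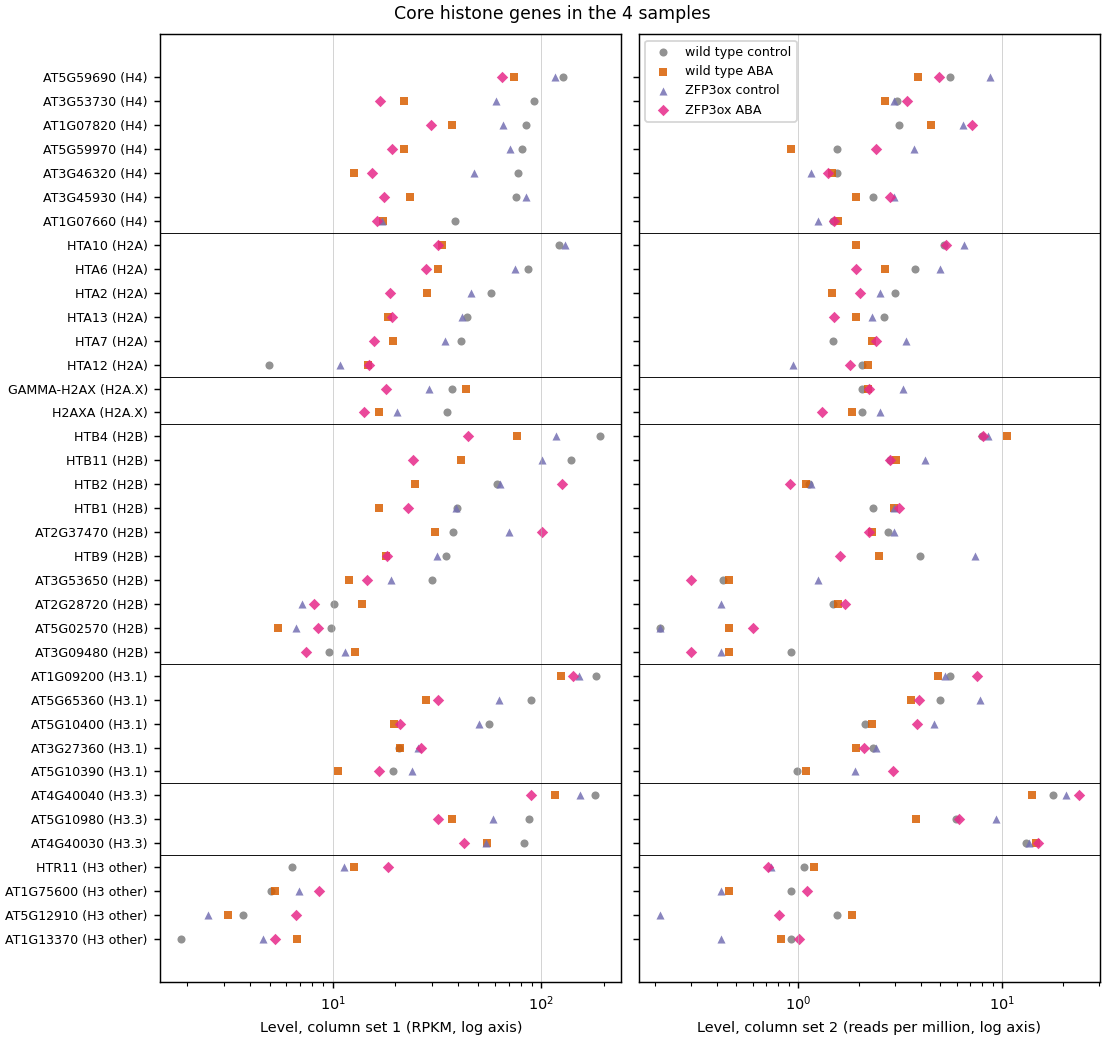
Level of each of the 37 core histone genes in the 4 samples, in set 1 (RPKM, left) and set 2 (RPM, right), on log axes and grouped by class. In set 1 the ABA points of most H4 and H2A genes sit left of both controls; in set 2 they mix. AT3G09480 and AT5G02570 are drawn but failed the level filter.

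By the median ratio in set 1, H4 was the lowest class with ABA in both genotypes. H4 pairs with H3 in the centre of the nucleosome, and all of its genes encode nearly the same protein. Wild-type ratios of the 7 genes had a median of -0.92 in the mean of the sets, with -1.65 in set 1 and -0.14 in set 2. In set 1, 6 of 7 were past 2-fold lower (background 4.86%). ZFP3ox gave -0.78, -1.57 and 0.14, with 5 of 7 past 2-fold lower in set 1 (background 5.49%). No H4 gene was past 2-fold in set 2 in either genotype. There, 5.88% of all features were lower and 6.59% higher in wild type, and 2.42% and 8% in ZFP3ox. Summed over the class, the set 2 ratio was 0.907 (0.747 to 1.099) in wild type and 0.872 (0.728 to 1.045) in ZFP3ox, while set 1 gave 0.361 and 0.387.

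The H4 gene with the lowest wild-type ratio was AT3G46320, one of the genes whose upstream bases are shown above. It had 77.8, 12.7, 47.5 and 15.4 RPKM, but 22, 16, 11 and 14 reads in set 2. The log2 ratios for ABA in sets 1 and 2 were -2.53 and -0.05 for the wild type, against -1.57 and 0.16 for ZFP3ox, so both ABA samples were below both controls in set 1 but not in set 2. AT5G59970 was lower in both sets and both genotypes, with 81.0, 22.1, 71.1 and 19.2 RPKM and 22, 10, 35 and 24 reads. Its ratios in sets 1 and 2 were -1.83 and -0.41 for the wild type, against -1.83 and -0.46 for ZFP3ox. AT3G53730 had 92.28, 22.01, 61.01 and 16.9 RPKM and 43, 29, 28 and 34 reads, and its wild-type mean ratio was -1.08. AT3G45930 had 75.8, 23.4, 84.8 and 17.6 RPKM and 33, 21, 28 and 28 reads, with a mean of -1.13 in ZFP3ox and -0.92 in wild type. For these genes the ABA samples stood apart from the controls in RPKM. In set 2 they differed little, except that AT5G59970 was lower with ABA within each genotype. The set 2 ratios of AT5G59970 were 0.589 (counting interval 0.249 to 1.297) in wild type and 0.656 (0.374 to 1.135) in ZFP3ox. Both of these intervals include 1.

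AT5G59690 was the highest H4 gene in RPKM in all 4 samples, with 127.9, 74.0, 116.9 and 64.7 RPKM and 78, 42, 83 and 49 reads. Both ABA samples were below both controls in each set, with mean log2 ratios of -0.60 and -0.78, short of 2-fold. AT1G07660 differed from the rest: 38.5 RPKM in wild-type control stood above 17.4, 17.2 and 16.4 in the other three samples. Reads of H4 genes can match more than 1 locus. Of the 50-base stretches of AT3G46320, 27.9% occur in AT3G45930, and 25.7% in the other direction, and AT1G07660 and AT1G07820 share 24.9% and 18.4%, so their single values are uncertain. Over the 40 kept members that share no 50-base stretch with another gene, a subset chosen after the data were seen, 2 were past 2-fold lower with ABA in wild type (background 2.86%), with a median log2 ratio of -0.27. In ZFP3ox, 1 of the 40 was lower (background 2.23%) and 2 were higher (background 4.55%), with a median of -0.10, against 6 lower and a median of -0.34 over all 53.

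Genes for H2A, which pairs with H2B in the nucleosome, were lower with ABA in both sets taken as a class. Their summed RPKM was 355.8, 146.5, 338.4 and 129.1, and the set 2 reads were 255, 136, 196 and 149. The set 2 ratio was 0.691 (0.557 to 0.855) in wild type and 0.728 (0.584 to 0.905) in ZFP3ox, both intervals below 1.

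HTA10 had 121.41, 33.4, 130.35 and 32.1 RPKM and 73, 21, 62 and 53 reads. Its ratios in sets 1 and 2 were -1.83 and -1.08 for the wild type, against -1.99 and -0.25 for ZFP3ox. In set 2 the wild-type ratio was 0.373 (0.218 to 0.613). HTA6, an H2A.W gene of the type found in heterochromatin, had 86.6, 32.0, 75.1 and 28.2 RPKM and 53, 29, 47 and 19 reads. Its mean log2 ratio was -0.89 in wild type and -1.21 in ZFP3ox. HTA13 gave mean ratios of -0.77 for the wild type and -0.74 for ZFP3ox. HTA2 gave -0.84 and -0.73. HTA7, another H2A.W gene, was lower in set 1 in both genotypes (-1.05 and -1.08) and split in set 2 (0.41 and -0.35).

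HTA12, the third H2A.W gene, went the other way in set 1, from a low level. It had 4.96, 14.8, 10.8 and 14.9 RPKM and 29, 24, 9 and 18 reads, and mean ratios of 0.74 in wild type and 0.48 in ZFP3ox. Its set 2 ratios were 1.07 (0.598 to 1.91) in wild type and 1.91 (0.817 to 4.84) in ZFP3ox, and both intervals include 1. The lowest 5% of all features in set 1 reached 3.68 RPKM in wild-type control and 6.14 with ABA. AT5G02570, an H2B gene, lies within HTA12 on the opposite strand. The authors' settings name strand-specific assembly, though not for which set, so the pair's reads may not be fully separated. Of the H2A.X genes, whose product is phosphorylated at DNA breaks, H2AXA had 35.3, 16.7, 20.5 and 14.2 RPKM and 29, 20, 24 and 13 reads, with ABA samples below controls in both sets. GAMMA-H2AX had 37.2, 43.7, 29.1 and 18.0 RPKM, so its direction differed between the genotypes, at 0.15 and -0.53 in the mean.

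H2B was less uniform. The 10 genes summed to 564.6 RPKM in the wild-type control and 253.1 with ABA, but to 468.1 and 375.6 in ZFP3ox. In set 2 the reads were 339, 276, 280 and 215, a ratio of 1.05 (0.897 to 1.24) in wild type and 0.735 (0.612 to 0.881) in ZFP3ox. HTB4 was the highest in both controls in RPKM, with 192.6, 77.0, 117.8 and 44.6 RPKM and 112, 115, 81 and 80 reads. HTB11, with the hexamer shown above, had 138.6, 41.2, 101.2 and 24.4 RPKM and 40, 33, 40 and 28 reads, a mean ratio of -0.83 in wild type and -1.23 in ZFP3ox. HTB9 had 34.9, 18.1, 31.6 and 18.3 RPKM and 56, 27, 70 and 16 reads, with mean ratios of -0.71 and -1.22, and its ABA samples were below both controls in each set. HTB1 had 39.5, 16.7, 39.3 and 22.9 RPKM and 33, 32, 28 and 31 reads. Its set 2 ratios with ABA were 1.26 (0.748 to 2.11) in wild type and 1.06 (0.615 to 1.83) in ZFP3ox, and both intervals include 1.

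A pair of H2B genes stood apart in ZFP3ox ABA, each in set 1 alone. HTB2 had 61.6, 24.9, 63.5 and 125.8 RPKM, but 16, 12, 11 and 9 reads in set 2. AT2G37470 had 37.9, 31.0, 70.4 and 100.93 RPKM and 39, 25, 28 and 22 reads. They were the highest H2B values of that sample, enter its class sum in set 1, and have no counterpart in set 2. AT3G53650 and AT2G28720 were low, at 12.0 to 29.9 and 7.12 to 13.8 RPKM. Both members that failed the filter enter no count: AT3G09480, with 3 to 13 reads, and AT5G02570, with 2 to 6.

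The genes for H3 are given by variant. H3.1 summed to 370.3, 203.8, 315.2 and 239.3 RPKM, and to 225, 150, 209 and 202 reads. After scaling to RPM, its set 2 ratio with ABA was 0.864 (0.698 to 1.067) in wild type and 0.925 (0.759 to 1.128) in ZFP3ox. Both of these intervals include 1. AT1G09200, the highest, had 183.9, 124.2, 151.9 and 143.1 RPKM and log2 means of -0.36 and 0.18. AT5G65360 had 89.9, 28.1, 63.1 and 32.0 RPKM and 70, 39, 74 and 39 reads, so the ABA samples were below the controls in both sets. Its mean ratio was -1.01 in wild type and -0.90 in ZFP3ox. AT5G10400 had 56.3, 19.8, 50.6 and 21.1 RPKM, with means of -0.69 and -0.72. AT3G27360 was flat at 20.8 to 26.4 RPKM, but 35.6% of its 50-base stretches are shared with other genes.

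The 3 H3.3 genes had 520, 353, 414 and 447 reads in set 2. AT4G40040 had 181.4, 116.6, 152.9 and 89.5 RPKM, AT5G10980 had 87.2, 37.2, 58.7 and 31.9, and AT4G40030 had 82.6, 55.3, 54.7 and 42.7. Their wild-type mean ratios were -0.48, -0.88 and -0.21. The H3.3 class ratio with ABA in wild type was 0.595 in set 1 and 0.880 (0.767 to 1.009) in set 2. In ZFP3ox the class ratio was 0.616 in set 1 and 1.03 (0.902 to 1.18) in set 2. Of the other H3 genes, HTR11 had 6.36, 12.7, 11.4 and 18.5 RPKM and AT1G13370 had 1.88, 6.76, 4.62 and 5.27, each higher with ABA in set 1. HTR11 lies 34 bases from AT5G65360, which went the other way. AT1G75600 had 5.06, 5.30, 6.89 and 8.57 RPKM. AT5G12910 had 3.70, 3.16, 2.52 and 6.70 RPKM, and its ZFP3ox log2 ratio was 1.13 in set 1 and 0.58 in set 2. In set 2 these 4 genes had 63, 47, 17 and 36 reads in all. Levels of the weakest features move with the same samples: the lowest 5% of all features in set 1 reached 3.68, 6.14, 5.48 and 7.83 RPKM. The part of that floor in the ratios of these weak genes was not tested.

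**Figure D3:**
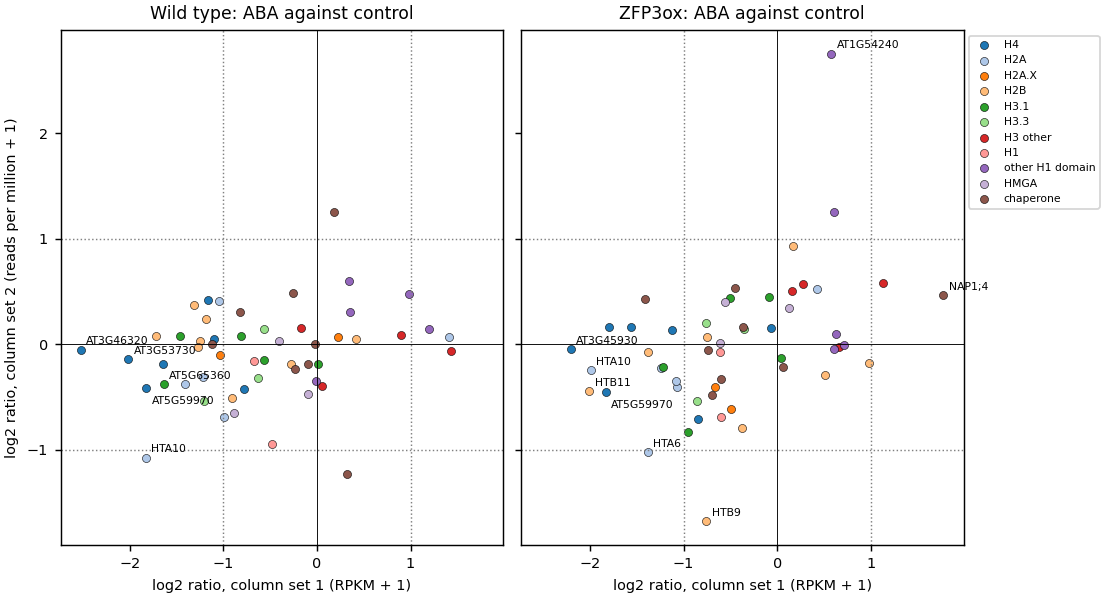
Log2 ratio of ABA to control for the 53 kept members, set 1 on the horizontal and set 2 on the vertical axis, in wild type (left) and ZFP3ox (right). Dotted lines mark 2-fold, colours mark the class and names the members past 2-fold in the mean of the sets. Most points lie left of 0 in set 1 and near 0 in set 2.

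Neither of the 2 linker histone genes was past 2-fold with ABA in either genotype. Of all features, 4.65% were higher and 2.86% lower in wild type, and 4.55% and 2.23% in ZFP3ox. AT1G06760 had 51.8, 32.1, 45.2 and 29.2 RPKM and 96, 65, 90 and 89 reads, with mean log2 ratios of -0.42 and -0.34. The set 2 ratios of AT1G06760 were 0.878 (counting interval 0.631 to 1.215) and 0.947 (0.698 to 1.283), which include 1. AT2G30620 had 63.9, 45.4, 46.7 and 30.4 RPKM and 186, 69, 100 and 61 reads, with mean ratios of -0.72 and -0.65. For AT2G30620 the ABA samples were below both controls in both sets. In limma, it had an ABA effect of -0.68 (SE 0.23), adjusted p = 0.201.

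Of the 5 further genes with an H1-type domain, 0 were past 2-fold with ABA in wild type and 1 was higher in ZFP3ox, AT1G54240. The mean ratio was below 0 for 1 of the 5 in wild type and 0 in ZFP3ox, beside 36.8% and 32% of all features, and in set 2 in ZFP3ox it was below 0 for 2. They summed to 41.9, 62.5, 62.2 and 99.2 RPKM. AT1G54240 had 4.80, 12.3, 11.1 and 17.1 RPKM and 28, 25, 17 and 177 reads, so ZFP3ox ABA stood apart in set 2. The mean ratio with ABA was 1.67 in ZFP3ox, with 0.58 and 2.75 in the sets, and 0.67 in wild type. The wild-type control value of AT1G54240 in set 1 was near the lowest 5% of all features, which reached 3.68 RPKM. AT5G08780 was higher with ABA in both genotypes (0.47 and 0.93), as was AT1G72740 (0.73 and 0.36). AT1G54230 gave 0.33 and 0.35, and AT1G54260 -0.18 and 0.29.

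The HMGA-type genes were lower in set 1 apart from HON5 in ZFP3ox. HMGA had 57.2, 30.5, 45.8 and 30.7 RPKM and mean ratios of -0.77 and -0.08, HON4 gave -0.19 and -0.30, and HON5 -0.28 and 0.23. HMGA proteins bend AT-rich DNA.

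Of the 8 histone chaperone genes, 6 had a mean log2 ratio below 0 in each genotype, beside 36.8% of all features in wild type and 32% in ZFP3ox, and in set 2 the ratio was below 0 for 5 and 4. The 8 members had a median log2 ratio of -0.19 in wild type and -0.25 in ZFP3ox. In a mean, 1 was past 2-fold, NAP1;4, which was higher in ZFP3ox (background 4.55%). NAP1;2 was the highest of the H2A-H2B chaperones in RPKM in both controls, with 113.5, 63.8, 99.9 and 36.8 RPKM and 194, 187, 71 and 103 reads. Its ABA ratio was negative in set 1 and positive in set 2. NAP1;1 gave -0.15 and -0.10, and NAP1;3 0.11 and 0.04. NAP1;4 had 21.2, 26.9, 31.4 and 110.12 RPKM and 384, 120, 62 and 93 reads, so a different sample was highest in each set. FAS1, the large subunit of chromatin assembly factor 1, had 12.4, 14.2, 12.8 and 13.4 RPKM and 194, 372, 141 and 125 reads. FAS2 had 9.44, 9.27, 18.8 and 11.2 RPKM, with a mean ratio of -0.01 in wild type and -0.59 in ZFP3ox. The chaperone gene FKBP53 had 36.7, 16.3, 30.4 and 17.7 RPKM with 74, 57, 48 and 48 reads, and NRP2, a NAP1-related gene, gave -0.24 and -0.46.

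Between the genotypes few nucleosome assembly genes were past 2-fold, in comparisons that share their samples with the ABA comparisons. Without ABA, 0 of 53 members were past 2-fold higher and 0 lower in ZFP3ox, against 0.954% and 1.58% of all features, and the median log2 ratio was -0.005, beside 0.008. The ABA samples compared gave 2 members higher, against 2.7%, and 0 lower, against 2.03%, with a median of 0.05 in the members and in all features. The higher members were AT1G54240 (0.45 and 2.51 in the sets, mean 1.48) and HTB2 (2.29 and -0.14, mean 1.08), each by 1 column of ZFP3ox ABA. The sets shared their sign for 27 of 53 members without ABA and 22 with ABA, with Pearson correlations of -0.24 and -0.05. Again no share over all features was taken for these counts. For core histones as a sum the sets pointed apart without ABA. ZFP3ox over wild type was 0.835 in set 1 and 1.23 (1.15 to 1.32) in set 2, and with ABA 1.04 and 1.21 (1.12 to 1.31).

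**Figure D4:**
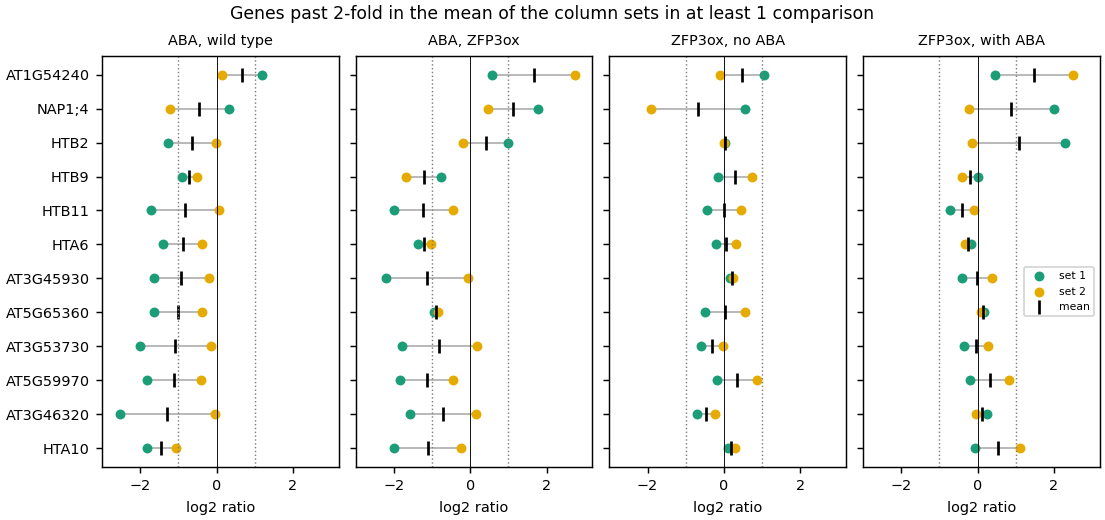
Log2 ratios of the 12 members past 2-fold in the mean of the sets in at least 1 of the 4 comparisons, for set 1, set 2 and their mean (black bar). Dotted lines mark 2-fold. The sets lie far apart for AT3G46320, NAP1;4 and HTB2.

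The ABA effect averaged over both genotypes was tested with limma on log2 values of the 4 samples, which leaves 1 residual degree of freedom, the departure from additivity. No member passed an adjusted p of 0.05 among 22646 features, in either direction, while 0.287% of all features were higher and 0.362% lower. Under median-of-ratios scaling 9 members were lower, where 2.68% of all features were lower and 0.874% higher. In set 1 alone 2 members were lower, where 0.185% of all features were lower and 0.274% higher. At an unadjusted p below 0.05, 18 of 53 members were lower (34%, background 5.74%) and 3 higher (5.66%, background 13.3%). The lowest adjusted p of a member was 0.0659 for HTA10 (limma effect -1.29, SE 0.24), followed by 0.0832 for AT5G59970 (-1.13, SE 0.23) and 0.108 for HTA6 (-1.05, SE 0.24). All of HTA10, AT5G59970 and HTA6 had a lower mean with ABA in both genotypes, which this ranking favours, so it adds no support. The genotype effect gave 0 members, against 0.00442% of all features in each direction, with 3 higher (background 4.27%) and 1 lower (background 3.02%) at an unadjusted p below 0.05. The edgeR quasi-likelihood test on the recovered set 2 reads, an alternative added after the data were seen, gave 0 members for ABA, where 0.221% of all features were higher and 0.23% lower. At an unadjusted p below 0.05 it gave 2 members higher (background 4.86%) and 3 lower (background 4.07%). For genotype edgeR gave 0 members, against 0.00442% higher and 0% lower, and at an unadjusted p below 0.05 it gave 6 higher (background 2.82%) and 1 lower (background 4.12%). No sources say that samples came from separate cultures, so these p-values measure the departure within these 4 samples.

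Other genes of the same processes were read beside the histones, from lists chosen with earlier results of these data in view. Of 24 measured S phase and DNA replication genes, the wild type had 1 past 2-fold higher with ABA and 0 lower, at a median log2 ratio of 0.08. In ZFP3ox 2 were higher and 0 lower, with a median of 0.22. Of 13 G2/M genes, which act in mitosis, 2 were lower in wild type and 0 in ZFP3ox, with medians of -0.38 and 0.08. Of 16 histone chaperone genes, 7 of them members, 0 were past 2-fold in wild type and 2 were higher in ZFP3ox. The 5 kept histone genes without the Gene Ontology term held 0 past 2-fold in either genotype. Over all features, 4.65% were higher and 2.86% lower in wild type, and 4.55% and 2.23% in ZFP3ox, with medians of 0.15 and 0.21. In set 1 the medians were 0.19 for wild type and 0.12 for ZFP3ox in the S phase list and -0.36 and -0.17 in the G2/M list. Beside them stood -1.05 and -0.76 for the 35 kept core histone genes and 0.31 and 0.22 for all features. The difference between the lists was not tested.

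Genes of seed reserves, the late embryo and photosynthesis, listed as a check of tissue, also differed with ABA. Of 10 seed reserve and late embryo genes, 8 were past 2-fold higher in wild type (background 4.65%) and 6 in ZFP3ox (background 4.55%), all in both sets. CRA1, OLEO1, OLEO2, LEA4-5, GEA6 and EM1 were higher in both genotypes. All 9 photosynthesis genes were past 2-fold lower in both genotypes in the mean of the sets (background 2.86% and 2.23%). In both sets, 8 were lower in wild type and 4 in ZFP3ox. Between the ABA samples, 8 of the 9 were higher in ZFP3ox (median log2 ratio 3.03, background 2.7%), and 7 of the 10 seed reserve and late embryo genes were lower (median -1.59, background 2.03%). Whether stage has any part in the histone ratios was not tested.

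In the authors' deposited table of 543 genes lower with ABA, 2 members were listed, with signed fold changes in which a negative value is the inverse ratio. HTA10 is given there, in the authors' deposited table, as -3.09 in wild type and -1.88 in ZFP3ox. HTA2 stands in the authors' deposited table at -2.02 and -1.66. The authors' deposited tables of 803 genes higher with ABA and of 165 and 225 genes lower and higher in ZFP3ox listed 0 members.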

How the data were processed

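Total RNA of whole seedlings was depleted of ribosomal RNA and sequenced on a SOLiD instrument in 4 samples, per the labels. The authors deposited RPKM for column set 1; per the deposited settings, reads were matched by strand with at most 2 mismatches, and a read with up to 10 matches was used. Aligner and build: not given in the sources used here. The deposited set 2 values proved to be RPM (reads scaled to library size): all values in all 4 columns were whole multiples of 1 step, within a rounding of 0.005, with no length scaling. The deposited lists hold signed fold change scores. The plan had assumed RPKM in both sets; the log2 test was kept.

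Values were log2(value + 1), compared within a set and averaged over both; counts use 2-fold, or 4-fold for the genotype by ABA difference. limma 3.58.1 (R 4.3.3) fitted the additive model with a prior of 6.7 degrees of freedom and Benjamini-Hochberg adjustment over 22646 features. edgeR 4.0.16 on the recovered reads, added after seeing the data, called 50 features higher and 52 lower with ABA and 1 higher for genotype. Reads are not independent molecules, so intervals cover counting error only. Gene starts and lengths are from RefSeq TAIR10.1, matched by locus code for 55 of 55 members. Named genes were the members past 2-fold in any comparison, the highest of each class, the linker histones and all members that are not histones, with further members near 2-fold. The members and lists were chosen with earlier results of these data known.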

Additional observations from a re-analysis of the deposited data

How the results depend on the processing

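Of the 15 cases of a member past 2-fold in a comparison, 12 stayed past 2-fold in set 1 alone, 5 in set 2 alone, 13 under median-of-ratios scaling, 8 with a pseudocount of 5, and 15 with a pseudocount of 0.1 or with no filter. HTB2 in ZFP3ox against wild type with ABA reversed in set 2 alone (-0.14). With ABA in wild type, members lower numbered 5, and 2 with a pseudocount of 5 and 8 under median-of-ratios scaling. Set 1 alone gave 20 members lower and set 2 alone 2. Members higher numbered 0, and 3 in set 1 and 1 in set 2, where 12.2% and 6.59% of all features were higher. With ABA in ZFP3ox, lower numbered 6, and 3 with a pseudocount of 5, 14 in set 1 and 2 in set 2; higher numbered 2, and 4 with a pseudocount of 0.1, 1 with a pseudocount of 5 and 1 under median-of-ratios scaling.

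Between genotypes without ABA, higher members numbered 0, and 1 in set 1; lower numbered 0, and 2 with a pseudocount of 0.1, 1 in set 1 and 2 in set 2; the median of -0.005 became -0.18 in set 1. With ABA, higher numbered 2, and 1 under median-of-ratios scaling and 4 in set 1; lower numbered 0, and 1 in set 1 and 2 in set 2; the median of 0.05 became -0.025 under median-of-ratios scaling, -0.058 in set 1 and 0.004 in set 2. For the genotype by ABA difference, higher numbered 0, and 1 in set 1 and 1 in set 2; the median of 0.04 became 0.015 under median-of-ratios scaling and 0.008 in set 2. limma called 0 members lower with ABA, and 9 under median-of-ratios scaling and 2 in set 1 alone. Over all features without ABA, 8.37% were higher and 1.2% lower in set 1, and 1.07% and 9.46% in set 2. With ABA the shares were 6.2% and 2.85% in set 1, and 4.43% and 6.16% in set 2. For the genotype by ABA difference, 0.627% of all features were higher in set 1 and 2.53% in set 2. For genotype counts under the other settings no share is given here. The causes were not tested.

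No paired analysis was possible because the groups share fewer than 2 replicate numbers; the limma fit already compared ABA within each genotype. With 2 to 384 set 2 reads per member and column, small ratios are within counting error. Of 55 members, the set 1 ratio of wild-type ABA lay outside the set 2 counting interval for 26. That count was taken for members only, so it has no share over all features beside it. Ratios of genes near 1 are understated by the pseudocount.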
